A study of Mus musculus with 6 samples.

Results

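The collagen chain genes are the 44 genes, of 55421 in the count table, whose symbol is Col, a number, the letter a, and a second number, such as *Col1a1*. They were taken by this form of the symbol and sorted into 11 fibrillar, 6 basement membrane (type IV), 9 FACIT, 6 beaded filament (type VI), and 12 other members, and their levels were compared between the DM1 group and the normal group. DM1 stands for myotonic dystrophy type 1, a muscle disease that is inherited. It arises from long runs of CTG in the *DMPK* gene, which yield RNA with long runs of CUG that is toxic to the cell. C2C12 is a mouse myoblast line that fuses into myotubes when serum is withdrawn. Both groups were made from it by stable transfection and G418 selection, with a *GFP* plasmid that carries 5 (CUG5, normal group) or 200 (CUG200, DM1 group) CUG repeats. Total RNA was taken on differentiation day 4 from 3 libraries of each group. Each group thus has a single cellular background and may be 1 transfected line. The sources used here do not say whether the line is a clone or a pool, or whether its replicates came from separate transfections. The p-values therefore measure the spread between these libraries.

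Collagens are secreted proteins whose chains wind around each other into a stiff helix in the endoplasmic reticulum. Fibrillar collagens (types I, II, III, V, and XI) build the fibrils of the interstitial matrix, and FACIT (fibril-associated) members sit on the fibril surface. Type IV chains form the network of the basement membrane that wraps each muscle fiber, and type VI chains form beaded filaments between that membrane and the interstitial matrix. In muscle, type I and III collagen accumulate in fibrosis, and mutations in the type VI genes cause muscular dystrophy.

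The libraries held between 61707889 and 80957325 counts. A count is 75 aligned bases in this table, so that the commonest low amount of 300 bases gave 4 counts. Levels are given as CPM (counts scaled by library size and TMM) where groups are compared, and as the deposited TPM, which StringTie also scales for transcript length, where genes of different length are compared. DM1 replicate 3 stood apart the most from the others of its group, and the chi-square of its counts per degree of freedom was 163 against DM1 replicate 1 and 111 against DM1 replicate 2, which gave 56.1 against each other. Among the 38 members that could be tested, this library had the highest CPM of all 6 libraries for 25, and for all 11 members that were upregulated. The same share over all tested genes was not counted. For an upregulated gene without overlap, the highest library is a DM1 library by definition. Mitochondrial genes took 8.90% of the counts of DM1 replicate 3, against 13.5% and 13.4% in DM1 replicates 1 and 2, and 9.04%, 12.3%, and 12.6% in normal replicates 1, 2, and 3. The part of this difference in the collagen levels was not tested.

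The lineage markers of skeletal muscle, *Des*, *Myod1*, *Myog*, *Ckm*, *Acta1*, and *Mef2c*, were all detected, and all 6 were lower in the DM1 group. Of 14 markers of differentiated myotubes, 11 were downregulated (8.73% of all tested genes were) and 0 upregulated, with summed levels of 14050.0 to 15293 CPM in the normal group and 8352 to 9799 CPM in the DM1 group. Their part in the collagen levels was not tested. In these bulk libraries, fewer cells of a type and less RNA per cell cannot be told apart.

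*Col3a1*, the chain of type III collagen, was by far the most abundant collagen mRNA, with 788 ± 99.4 TPM (SD, n = 3) in the normal group and 840.2 ± 130.4 TPM in the DM1 group. It made up 41.4% of the summed collagen TPM in the normal group and 35.9% in the DM1 group. *Col1a2* came next in both groups, at 213 ± 19.1 and 251 ± 33.1 TPM. *Col5a2*, *Col5a1*, *Col6a3*, and *Col6a1* followed in the normal group with means between 113 and 139.7 TPM, and each of these neighbors in the order lay within its spread of the next. *Col1a1* took place 7 in the normal group, at 87.9 ± 7.30 TPM, and place 5 in the DM1 group, at 165 ± 26.5 TPM. *Col5a1* moved from place 4 to place 3. The type IV genes *Col4a1* and *Col4a2* went the other way, from places 12 and 14 to places 14 and 15. The transcripts of all 44 members summed to 1738 to 2147 TPM in the normal libraries and 2054 to 2874 TPM in the DM1 libraries, with overlap. In CPM they summed to 5847 to 6599.5 in the normal libraries and 8004, 7915, and 9275 in DM1 replicates 1, 2, and 3, without overlap and 1.35-fold higher on average.

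**Figure D1:**
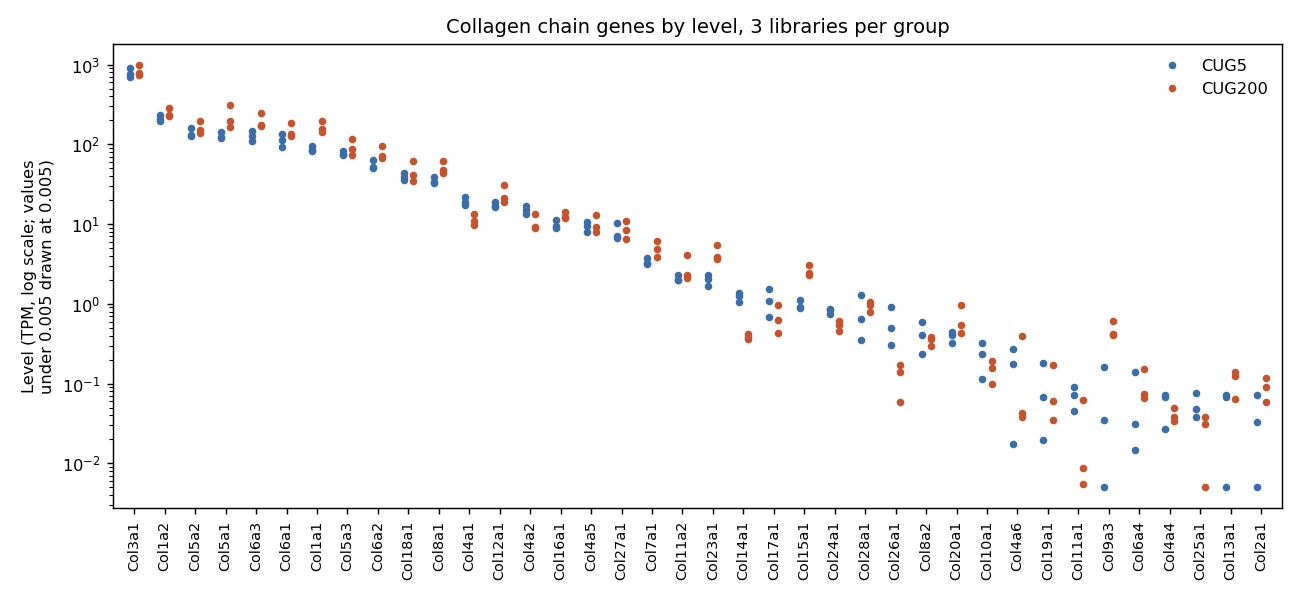
Levels of the 38 tested collagen genes in each library, in TPM on a log scale, ordered by the normal group's mean (blue, 3 normal libraries; orange, 3 DM1 libraries). Col3a1 lies above all others, the blue and orange points of Col1a1 and Col15a1 are clear of each other, and genes under 1 TPM scatter widely within a group.

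Of the 44 members, 6 could not be tested. *Col9a1*, *Col9a2*, *Col6a5*, and *Col6a6* had 0 counts in all 6 libraries, where 3 counts would be worth 0.0357 to 0.0489 CPM. As 1 fragment often gave 4 counts, a count of 0 allows a higher level than these 3 counts. *Col4a3* had 8, 8, and 11 counts in the normal group and 4 in each DM1 library, and *Col22a1* had between 0 and 16 counts. Of the 38 tested, 9 did not reach the filter's minimum in all 6 libraries, among them *Col26a1* (3 normal libraries, 1 DM1 library), *Col2a1*, and *Col9a3* (1 normal library, 3 DM1 libraries each). A gene that passes mainly through 1 group must be higher there, so the counts given next only describe the members that passed.

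In the DM1 group, 11 collagen genes were upregulated and 5 were downregulated, each with an adjusted p-value (quasi-likelihood test of edgeR, Benjamini-Hochberg over 19005 genes) of less than 0.05. Of all tested genes 15.9% were called, 7.13% as higher and 8.73% as lower. With an absolute log2 fold change over 1 as a further cutoff, *Col1a1*, *Col15a1*, and *Col23a1* remained among the upregulated genes and *Col14a1* and *Col26a1* among the downregulated ones, where 1.36% of all tested genes passed as higher and 0.816% as lower. The libraries of the groups did not overlap in CPM for 24 of the 38 members, against 37.2% of all tested genes. The median log2 fold change of the 38 was 0.30, and that of all tested genes was 0.02. When DM1 replicate 3 was left out, 11 members were called higher and 3 lower, and 1 in each direction was past the fold change cutoff. Without DM1 replicate 1, 5 were past it as higher. The count of downregulated members was 2 without normal replicate 1, 2, or 3 and without DM1 replicate 2. With limma-trend on log2 TPM at either pseudocount, 4 members were called higher and 2 lower. These 4 need not all be among the 11, of which only *Col1a1*, *Col15a1*, and *Col23a1* were called in every alternative fit. The 2 lower ones were *Col4a1* and *Col14a1*. Under each of the 6 fits that leave out 1 library, 10 of the 16 kept their call: *Col1a1*, *Col5a1*, *Col6a1*, *Col6a2*, *Col6a3*, *Col8a1*, *Col15a1*, *Col23a1*, *Col4a1*, and *Col14a1*.

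**Figure D2:**
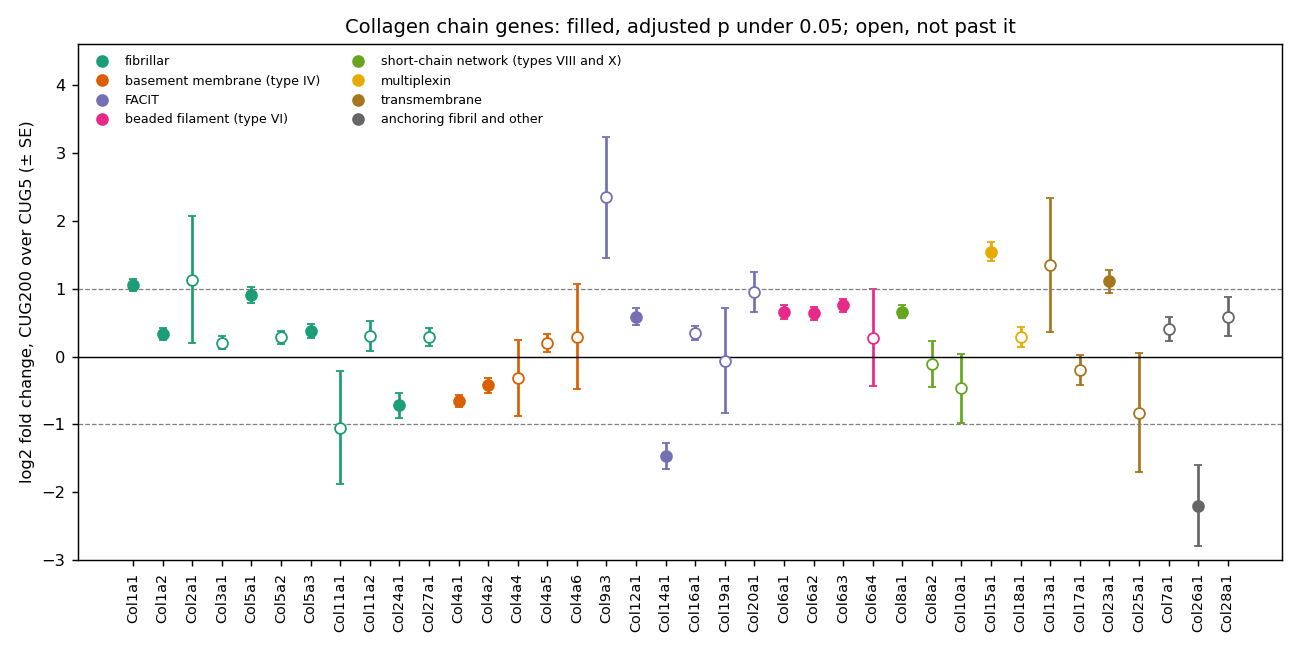
Log2 fold change (DM1 over normal group) with its standard error for the 38 tested collagen genes, colored by class. Filled points have an adjusted p-value under 0.05, and dashed lines mark a log2 fold change of 1 and -1. Type VI points lie between 0.28 and 0.75, and the filled type IV points lie at -0.65 and -0.42.

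Among the 11 fibrillar members, all of which were tested, 4 were upregulated and 1 was downregulated, beside 7.13% and 8.73% of all tested genes. Their median log2 fold change was 0.30. *Col1a1* (ENSMUSG00000001506, chr11:94936224-94953042 on GRCm38), the alpha 1 chain of type I collagen, stood at 292, 269, and 290.2 CPM in the normal libraries and at 548, 586, and 638 CPM in the DM1 libraries. Every DM1 library was far above every normal library, with a log2 fold change of 1.06 ± 0.090 (SE, adjusted p = 0.000916). Without DM1 replicate 3 the log2 fold change was 0.997, just under the cutoff of 1, and the call at an adjusted p-value under 0.05 held. *Col1a2* (chr6:4504814-4541544), the partner chain, stood at 593, 546, and 579.5 CPM and 698, 690.1, and 772 CPM. Its groups did not overlap either, but its change was much smaller, with a log2 fold change of 0.33 ± 0.085 (SE, adjusted p = 0.0331), and the call was lost without any 1 of the 3 normal libraries or without DM1 replicate 2 (adjusted p between 0.0275 and 0.142 over the 6 fits that leave out a library). *Col3a1* (chr1:45311538-45349706) stood at 2787, 2383, and 2594 CPM in the normal group and 3006, 2753, and 3189.5 CPM in the DM1 group. Here 1 normal library lay above 1 DM1 library, and the log2 fold change of 0.20 ± 0.098 (SE, adjusted p = 0.197) did not pass the test. The annotation places a microRNA gene, *Gm47302*, on exonic bases of *Col3a1* on the same strand, with 6292 to 10558 counts against at least 146340 for *Col3a1*.

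The type V genes make minor chains that limit the width of type I fibrils. *Col5a1* (chr2:27886425-28039514) stood at 560.3, 522, and 536 CPM in the normal group and 865, 973, and 1185 CPM in the DM1 group. All DM1 libraries were higher, with DM1 replicate 3 highest, and the log2 fold change was 0.90 ± 0.12 (SE, adjusted p = 0.00319). Without DM1 replicate 3 it was 0.77, and the call held. Over all 18 alternative fits, *Col5a1* kept its call in 16. *Col5a3* showed a smaller difference, from 259.9 ± 8.07 to 338 ± 43.0 CPM. Its log2 fold change was 0.38 ± 0.10 (SE, adjusted p = 0.0399), and it lost its call in the same 4 of 6 fits as *Col1a2*. *Col5a2*, at 569.8, 497, and 524 CPM and 613, 614, and 705 CPM, did not overlap between the groups but missed the threshold with a log2 fold change of 0.28 ± 0.095 (SE, adjusted p = 0.0805). *Col24a1*, a fibrillar chain known from developing bone, was the only downregulated member of the class, from 3.25 ± 0.102 to 1.98 ± 0.304 CPM (log2 fold change -0.71 ± 0.18, adjusted p = 0.0326). It kept the call in only 1 of the 6 fits that leave out a library. The remaining members were *Col27a1* (log2 fold change 0.28 ± 0.13), *Col11a2* (0.30 ± 0.22), *Col2a1* (1.13 ± 0.94), and *Col11a1* (-1.05 ± 0.83), and none of these passed the test. With 1 library left out, the log2 fold change lay between 0.12 and 0.38 for *Col27a1*, between 0.58 and 2.12 for *Col2a1*, and between -2.38 and -0.59 for *Col11a1*. *Col11a2* was high in DM1 replicate 3 alone, at 8.41 CPM against 4.57 to 5.16 CPM in the other libraries. *Col2a1*, the main cartilage collagen, had at most 19 counts in any library.

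Among the 6 type IV members, 5 were tested, 2 were downregulated, and 0 were upregulated, beside 8.73% and 7.13% of all tested genes. The median log2 fold change was -0.31, which is the value of the scarce *Col4a4*, and it lay between -0.53 and -0.0379 with 1 library left out. *Col4a1* (ENSMUSG00000031502, chr8:11198423-11312826) and *Col4a2* (ENSMUSG00000031503, chr8:11312805-11449287) encode the chains of the common basement membrane network. *Col4a1* stood at 79.1, 71.3, and 66.9 CPM in the normal group and 45.3, 45.2, and 47.9 CPM in the DM1 group, and the 3 DM1 libraries lay close together below all normal libraries (log2 fold change -0.65 ± 0.088, adjusted p = 0.00332). *Col4a2* stood at 60.5, 52.6, and 58.7 CPM and 40.5, 38.6, and 49.3 CPM, without overlap, and its log2 fold change was -0.42 ± 0.11 (SE, adjusted p = 0.0353). That call was kept in only 1 of the 6 fits that leave out a library, with the adjusted p between 0.0066 and 0.136. Without DM1 replicate 3, which held the highest *Col4a2* level of its group, the log2 fold change of *Col4a2* was -0.53 with an adjusted p-value of 0.0066. *Col4a5*, a chain of a more specialized network, stood at 34.1, 29.6, and 33.8 CPM and 31.6, 35.6, and 44.8 CPM, so its groups overlapped (log2 fold change 0.20 ± 0.13, adjusted p = 0.363). Its log2 fold change was 0.0466 without DM1 replicate 3. *Col4a4* and *Col4a6* had under 1 CPM in all libraries, and their log2 fold changes of -0.31 ± 0.56 and 0.29 ± 0.77 did not pass the test. The summed level of the class was 26.9, 29.3, and 40.5 TPM in DM1 replicates 1, 2, and 3 and 49.9, 40.4, and 42.4 TPM in the normal libraries. On this scale DM1 replicate 3 was level with the lowest normal library, and the other DM1 libraries were below all normal ones. In CPM the sums were 174, 154, and 160.4 in the normal libraries and 118, 119.9, and 143 in the DM1 libraries, and all DM1 libraries, replicate 3 included, lay below all normal ones.

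The 6 tested FACIT members went in different directions, with 1 upregulated and 1 downregulated, beside 7.13% and 8.73% of all tested genes. Their median log2 fold change was 0.47, and 0.71 without normal replicate 1. *Col12a1* (chr9:79598991-79718831), which coats type I fibrils in tendon, fascia, and muscle, stood at 106, 90.4, and 97.9 CPM in the normal group and 131, 135, and 176 CPM in the DM1 group. All DM1 libraries were higher, with a log2 fold change of 0.59 ± 0.12 (SE, adjusted p = 0.0163). The call was lost without normal replicate 2 and without normal replicate 3, with adjusted p-values of 0.0722 and 0.0659. Without DM1 replicate 3 the log2 fold change was 0.44, and the call held. *Col14a1* (ENSMUSG00000022371, chr15:55307750-55520803), a close relative that also binds the fibril surface, went the other way, at 4.10, 4.22, and 3.41 CPM in the normal group and 1.44, 1.24, and 1.56 CPM in the DM1 group. All 3 DM1 libraries lay far below the lowest normal library, and the log2 fold change was -1.47 ± 0.19 (SE, adjusted p = 0.00297). *Col16a1*, a FACIT chain of skin and cartilage, did not overlap between the groups (20.4 ± 0.972 and 25.9 ± 2.57 CPM) and missed the threshold, with a log2 fold change of 0.34 ± 0.11 (SE, adjusted p = 0.0615). *Col20a1*, with 50 to 184 counts, had a log2 fold change of 0.95 ± 0.30 (SE, adjusted p = 0.0613). It shares exonic bases with *9230112E08Rik*, which had more counts (522 to 772). Over the alternative fits the log2 fold change of *Col20a1* was as low as 0.19. *Col9a3* had 24, 5, and 0 counts in the normal group and 44, 43, and 50 in the DM1 group (log2 fold change 2.34 ± 0.89, adjusted p = 0.114). *Col19a1* scattered between 0.0814 and 0.523 CPM in both groups alike.

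In type VI collagen the main chains went in the same direction. All 3 of its abundant members were upregulated, beside 7.13% of all tested genes. The fourth tested member was not, and the median log2 fold change was 0.65. *Col6a1* (chr10:76708792-76726168) stood at 264, 229.5, and 249 CPM in the normal libraries and 366, 365, and 442 CPM in the DM1 libraries (log2 fold change 0.66 ± 0.11, adjusted p = 0.00613). *Col6a2* (chr10:76595762-76623630) stood at 154, 136, and 141 CPM and 211, 212, and 248 CPM (log2 fold change 0.64 ± 0.097, adjusted p = 0.00513). *Col6a3* (chr1:90765923-90843971), whose long chain completes the type VI molecule, stood at 515, 474, and 464 CPM and 773, 759, and 914 CPM (log2 fold change 0.75 ± 0.10, adjusted p = 0.00321). For each of these genes DM1 replicates 1 and 2 lay close together, DM1 replicate 3 was higher, and all were above the normal libraries in CPM. In TPM the groups of *Col6a1* overlapped, and with limma-trend on log2(TPM + 1) none of these 3 genes passed the test, with adjusted p-values of 0.216, 0.0924, and 0.0663. Without DM1 replicate 3 their log2 fold changes were 0.56, 0.55, and 0.66, and the edgeR calls held. *Col6a4* was at most 0.464 CPM, with a log2 fold change of 0.28 ± 0.72.

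Of the other 12 members, 3 were upregulated and 1 was downregulated, beside 7.13% and 8.73% of all tested genes. *Col15a1* (ENSMUSG00000028339, chr4:47208161-47313167), a multiplexin that links basement membranes to the matrix around muscle fibers and capillaries, had the largest fold change among the upregulated collagen genes. It stood at 3.19, 2.74, and 2.92 CPM in the normal group and 8.81, 7.87, and 9.13 CPM in the DM1 group, with little spread within either group and a log2 fold change of 1.54 ± 0.14 (SE, adjusted p = 0.00114). *Col18a1*, the other multiplexin and the source of endostatin, was far more abundant, at 109.7, 97.6, and 102 CPM and 108, 111, and 158 CPM. Its groups overlapped, and DM1 replicate 3 alone was clearly higher (log2 fold change 0.28 ± 0.15, adjusted p = 0.239). Without that library the log2 fold change was 0.08. *Col23a1* (ENSMUSG00000063564, chr11:51289920-51583918), a collagen that spans the plasma membrane, stood at 7.32, 5.73, and 6.97 CPM and 12.7, 13.0, and 17.4 CPM (log2 fold change 1.11 ± 0.16, adjusted p = 0.00463). Without DM1 replicate 3 its log2 fold change was 0.94, under the cutoff of 1. The other transmembrane members, *Col13a1*, *Col17a1*, and *Col25a1*, stayed under 3 CPM in every library and did not pass the test (log2 fold changes 1.35 ± 0.99, -0.20 ± 0.22, and -0.83 ± 0.87).

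*Col8a1* (chr16:57624258-57754737), a short-chain collagen known from vessel walls and cornea, stood at 113, 101, and 107 CPM in the normal group and 160.2, 163, and 184 CPM in the DM1 group. All DM1 libraries were higher, with a log2 fold change of 0.66 ± 0.090 (SE, adjusted p = 0.00332). The call was kept in 16 of 18 alternative fits. Its relatives *Col8a2* and *Col10a1* were at most 1.45 CPM and did not pass the test (log2 fold changes -0.11 ± 0.33 and -0.47 ± 0.51). *Col7a1*, which makes the anchoring fibrils of skin, stood at 10.9 ± 0.869 and 14.5 ± 3.83 CPM (log2 fold change 0.40 ± 0.18, adjusted p = 0.171), with DM1 replicate 3 well above the rest. Without it the log2 fold change was 0.16. *Col28a1* had a log2 fold change of 0.58 ± 0.29 (SE, adjusted p = 0.212). *Col26a1* (chr5:136741759-136883209) was the downregulated member, with 35, 38, and 32 counts in the normal group and 14, 4, and 5 counts in the DM1 group (log2 fold change -2.19 ± 0.59, adjusted p = 0.0381). As 1 fragment often gave 4 counts, the libraries with 4 and 5 counts rest on about 1 fragment each, and the call was kept in only 1 of the 6 fits that leave out a library.

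**Figure D3:**
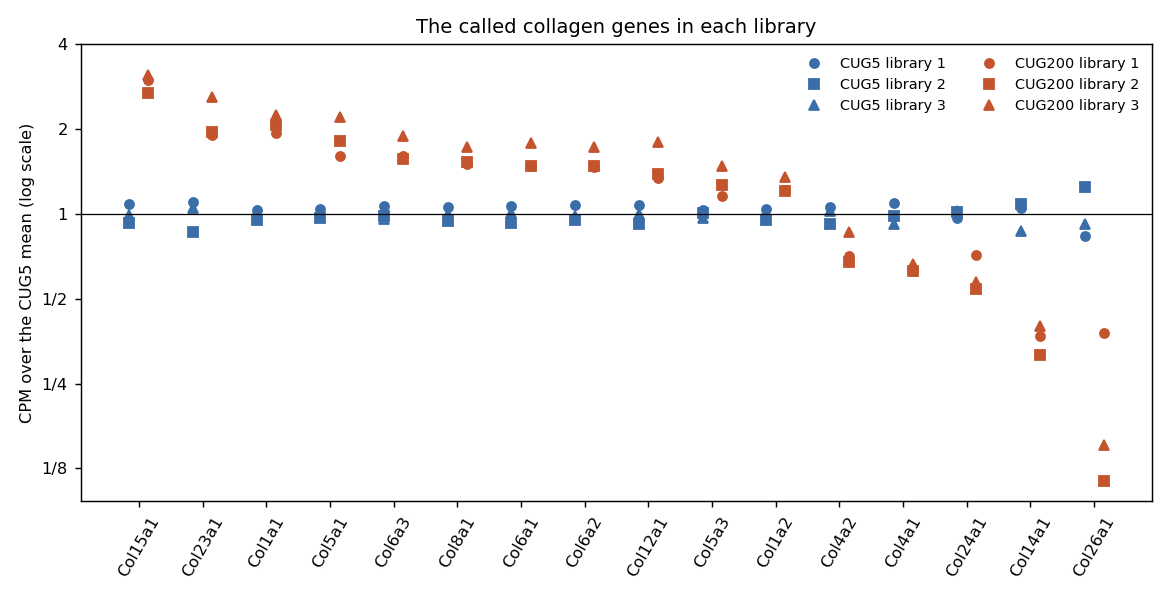
CPM of the 16 called collagen genes in each library, divided by the mean of the normal group, on a log scale (blue, normal libraries; orange, DM1 libraries; circle, square, and triangle, replicates 1, 2, and 3). The orange triangle, DM1 replicate 3, is the highest point for all 11 upregulated genes, and the orange points of Col1a1 and Col15a1 are close together.

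Chains of a collagen type assemble with each other, so ratios between chains were taken within each library from the TPM values. They do not depend on the scaling of the library. They are given as a description, without a test. The ratio of *Col1a1* to *Col1a2* was 0.411, 0.417, and 0.409 in the normal libraries and 0.623, 0.671, and 0.672 in the DM1 libraries. The groups were far apart, with means of 0.412 ± 0.0044 and 0.655 ± 0.028 (SD, n = 3), a 1.59-fold difference. Most type I molecules contain more alpha 1 than alpha 2 chains, and the alpha 1 mRNA was the scarcer one in both groups. The ratio of *Col5a1* to *Col5a2* was 0.893, 0.964, and 0.914 in the normal group and 1.22, 1.30, and 1.59 in the DM1 group, so that the order of these chains was turned around. By contrast, *Col5a3* to *Col5a2* overlapped between the groups, with means of 0.552 ± 0.037 and 0.571 ± 0.034.

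Within type VI the ratios differed little. *Col6a1* to *Col6a2* was 2.04 ± 0.21 in the normal group and 1.88 ± 0.033 in the DM1 group, *Col6a3* to *Col6a2* was 2.32 ± 0.21 and 2.47 ± 0.073, and both overlapped. When counts per kilobase of the longest transcript took the place of TPM, the ratio of *Col6a3* to *Col6a2* no longer overlapped (1.64 ± 0.046 and 1.77 ± 0.027). Within type IV, *Col4a1* to *Col4a2* was 1.28 ± 0.12 and 1.08 ± 0.11, with overlap. *Col4a5* to *Col4a2* was 0.622, 0.598, and 0.619 in the normal libraries and 0.862, 1.03, and 0.957 in the DM1 libraries, without overlap. *Col3a1* to *Col1a2*, the main chains of types III and I, was 3.68 ± 0.14 in the normal group and 3.34 ± 0.14 in the DM1 group, a small difference, also without overlap.

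**Figure D4:**
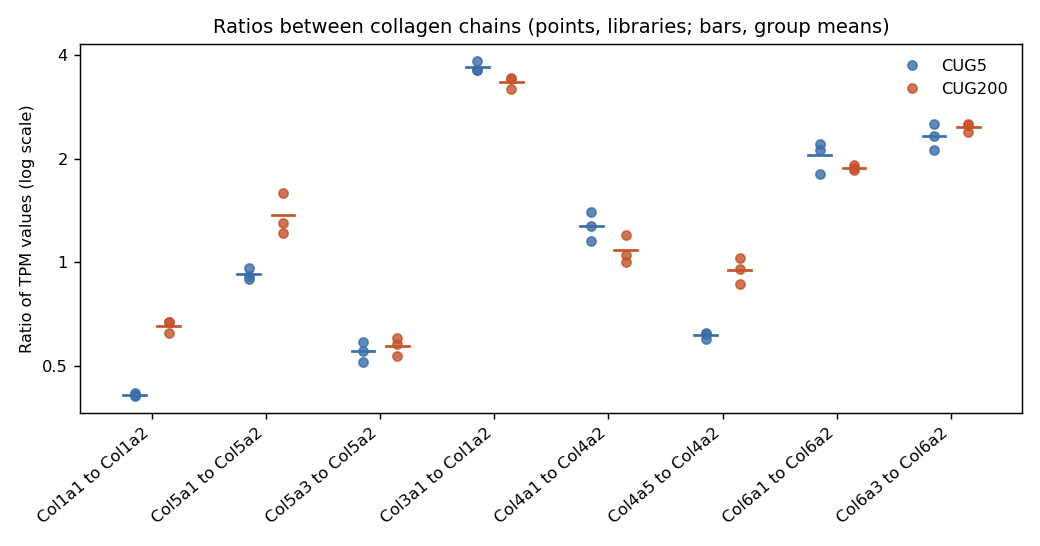
Ratio of TPM values between pairs of collagen chains in each library, on a log scale (blue, normal libraries; orange, DM1 libraries; bars, group means). Points of the groups are apart for Col1a1 to Col1a2 (0.412 and 0.655 on average), Col5a1 to Col5a2, Col3a1 to Col1a2, and Col4a5 to Col4a2, and overlap for the other 4 pairs.

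Several members are neighbors in the genome. *Col4a1* and *Col4a2* lie head to head on chromosome 8, with 22 overlapping bases, and both were downregulated. *Col4a5* and *Col4a6* lie head to head on chromosome X, 1308 bases apart, and neither passed the test. *Col6a1* and *Col6a2* lie on the same strand of chromosome 10 with 85161 bases between them, and both were upregulated, whereas *Col18a1*, which lies on the same strand 326009 bases from *Col6a1*, did not pass the test. *Col3a1* and *Col5a2* lie tail to tail on chromosome 1, 24614 bases apart, and neither passed it.

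The bases before the start sites are shown for members that differ in the size of their change. Entries were found for 35 collagen genes (38 start sites), each from 250 bases before to 50 bases after the start, in RefSeq's sequence of GRCm38.p6. The first is a stretch of 30 bases upstream of *Col4a2* (chr8:11312755-11312784, plus strand), downstream of the *Col4a1* start on the other strand, where it overlaps an exon of *Col4a1*. Capitals mark a GC box (GGGCGG on either strand) and a CCAAT box (CCAAT on either strand), both common elements of promoters.
Col4a2: cgCCGCCCgaggagctccCCAATttgttgg

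The next are the 120 bases before the start of 4 upregulated genes with different chain types and of *Col3a1*, which did not pass the test. Capitals mark the same motifs and others, each on either strand. These are the TATA box with the letters TATAAA and a SMAD motif with the letters CAGACA. An E-box with the letters CACCTG is also marked. *Col5a1* (chr2:27886305-27886424, plus strand) carries a GC box and a SMAD motif, *Col8a1* (chr16:57754738-57754857, minus strand) carries several GC boxes, a SMAD motif, and an E-box, and *Col23a1* (chr11:51289800-51289919, plus strand) carries a GC box next to the start. *Col15a1* (chr4:47207892-47208011, plus strand) holds none of the motifs in this stretch. *Col3a1* (chr1:45311418-45311537, plus strand) has the TATA box letters, at positions -117 to -112 from the start, and a SMAD motif and no GC box.
Col5a1: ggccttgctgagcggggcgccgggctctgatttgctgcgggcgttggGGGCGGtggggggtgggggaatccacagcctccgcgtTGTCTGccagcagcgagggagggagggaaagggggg
Col8a1: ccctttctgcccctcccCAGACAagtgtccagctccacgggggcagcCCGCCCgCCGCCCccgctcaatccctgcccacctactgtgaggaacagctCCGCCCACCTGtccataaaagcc
Col23a1: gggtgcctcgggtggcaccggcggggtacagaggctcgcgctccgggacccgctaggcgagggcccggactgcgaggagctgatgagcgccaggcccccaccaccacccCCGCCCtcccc
Col15a1: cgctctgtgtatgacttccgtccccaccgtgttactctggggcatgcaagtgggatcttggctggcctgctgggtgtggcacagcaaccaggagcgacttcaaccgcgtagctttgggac
Col3a1: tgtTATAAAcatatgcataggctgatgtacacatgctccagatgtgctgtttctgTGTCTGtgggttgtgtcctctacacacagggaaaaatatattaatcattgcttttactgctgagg

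A GC box was found in 23 of the 38 collagen entries (60.5%) and in 35.7% of all 32851 entries. Over the whole window the CCAAT box was in 34.2% against 37.4%, the TATA box in 13.2% against 13.6%, the SMAD motif in 23.7% against 21.04%, CATTCC (the TEAD motif) in 13.2% against 14.7%, the E-box in 13.2% against 20.2%, and TGANTCA (the AP-1 motif) in 2.63% against 7.81%. In the bases before the start the GC box was in 57.9% against 32.7% and the SMAD motif in 23.7% against 17.1%. The motif letters were searched on both strands, and matches of different motifs may overlap. A match describes these letters only. The tested collagen transcripts were also richer in G and C than those of all tested genes (median 55.9% against 49.2%) and longer (median 5794 against 2776.5 bases for the longest transcript). With these trends removed, 14 members were called higher and 4 lower. *Col3a1*, *Col5a2*, and *Col20a1* were called in that fit, and *Col24a1* was not.

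Collagen chains are modified, folded, cut, and cross-linked by a shared set of proteins, and 47 genes for these steps were listed. Of 41 tested, 14 were upregulated and 1 was downregulated, with a median log2 fold change of 0.17, beside 7.13% higher and 8.73% lower over all tested genes. The count of upregulated genes was 9, 6, and 7 without normal replicates 1, 2, and 3 and 8 without DM1 replicate 2, and 3 with limma-trend on log2 TPM at either pseudocount. Among 13 tested hydroxylation and glycosylation genes, 6 were upregulated, including all 3 catalytic subunits of prolyl 4-hydroxylase, which stabilizes the helix. *P4ha1* stood at 442, 408, and 396 CPM in the normal group and 657, 592, and 596 CPM in the DM1 group, without overlap (log2 fold change 0.56 ± 0.087, adjusted p = 0.0054). *P4ha2* and *P4ha3* had log2 fold changes of 0.46 ± 0.095 (SE, adjusted p = 0.015) and 0.93 ± 0.14 (SE, adjusted p = 0.00487). *Plod2*, the lysyl hydroxylase of the chain ends, stood at 295, 298, and 305 CPM and 509, 503, and 441 CPM (log2 fold change 0.69 ± 0.087, adjusted p = 0.00272). *P3h3*, of the prolyl 3-hydroxylase family, had a log2 fold change of 0.71 ± 0.16 (SE, adjusted p = 0.0228). The call of *P4ha2* was kept in 4 and that of *P3h3* in 3 of the 6 fits that leave out a library.

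Of 12 tested folding and secretion genes, 2 were upregulated and 1 was downregulated, beside 7.13% and 8.73% of all tested genes. *Serpinh1*, the collagen chaperone HSP47, stood at 335, 272, and 295 CPM in the normal group and 348, 280.2, and 344 CPM in the DM1 group, so the groups overlapped (log2 fold change 0.11 ± 0.12, adjusted p = 0.597). *Ppib*, a prolyl isomerase, had a log2 fold change of 0.50 ± 0.14 (SE, adjusted p = 0.0387), and *Sec23a*, a coat protein of transport vesicles, one of 0.35 ± 0.083 (SE, adjusted p = 0.0236). *Tmem38b*, an ion channel of the endoplasmic reticulum, was downregulated (log2 fold change -0.31 ± 0.080, adjusted p = 0.0322). These 3 calls were kept in at most 2 of the 6 fits that leave out a library. Among 6 tested genes of propeptide processing, *Bmp1*, the C-propeptide protease, had a log2 fold change of 0.43 ± 0.11 (SE, adjusted p = 0.0335). The N-propeptide proteases *Adamts2* and *Adamts14* had log2 fold changes of 0.53 ± 0.10 (SE, adjusted p = 0.0124) and 0.37 ± 0.098 (SE, adjusted p = 0.0358). The calls of *Bmp1* and *Adamts14* were kept in 2 of those fits.

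Of the 5 cross-linking enzymes, 3 were upregulated, beside 7.13% of all tested genes. *Lox*, the lysyl oxidase, stood at 311, 260.4, and 309 CPM in the normal group and 454, 465, and 469 CPM in the DM1 group, and the DM1 libraries lay very close together (log2 fold change 0.66 ± 0.093, adjusted p = 0.004). *Loxl3* had a log2 fold change of 0.60 ± 0.11 (SE, adjusted p = 0.00878). *Loxl4* stood at 5.45, 2.80, and 5.25 CPM and 11.4, 11.7, and 12.2 CPM, a log2 fold change of 1.38 ± 0.23 (SE, adjusted p = 0.00808). The calls of all 3 enzymes were kept in each of the 6 fits that leave out a library. Over all 18 alternative fits, *Lox* and *Loxl4* kept their calls in each, and *Loxl3* kept its call in 16. None of the 5 tested genes of collagen degradation and uptake passed the test by edgeR, with log2 fold changes between -0.99 and 0.37, and 0 of them had an unadjusted p-value under 0.05. By DESeq2, 0 of them passed.

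Of 6 tested collagen receptor genes, 1 was upregulated (16.7%), beside 7.13% upregulated over all tested genes. *Itga10*, an integrin subunit that binds collagen, stood at 10.3, 9.79, and 6.34 CPM in the normal group and 14.3, 14.1, and 15.1 CPM in the DM1 group (log2 fold change 0.72 ± 0.18, adjusted p = 0.0302), and it kept its call in 1 of the 6 fits that leave out a library. *Itga11*, its relative and a receptor for type I collagen, stood at 2.88, 3.44, and 3.02 CPM and 3.74, 5.42, and 5.01 CPM and missed the threshold (log2 fold change 0.60 ± 0.19, adjusted p = 0.0596). *Ddr2*, a receptor kinase for fibrillar collagen, stood at 282, 291, and 296 CPM and 285, 299, and 277 CPM, so that the groups overlapped (log2 fold change -0.01 ± 0.078, adjusted p = 0.931).

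**Figure D5:**
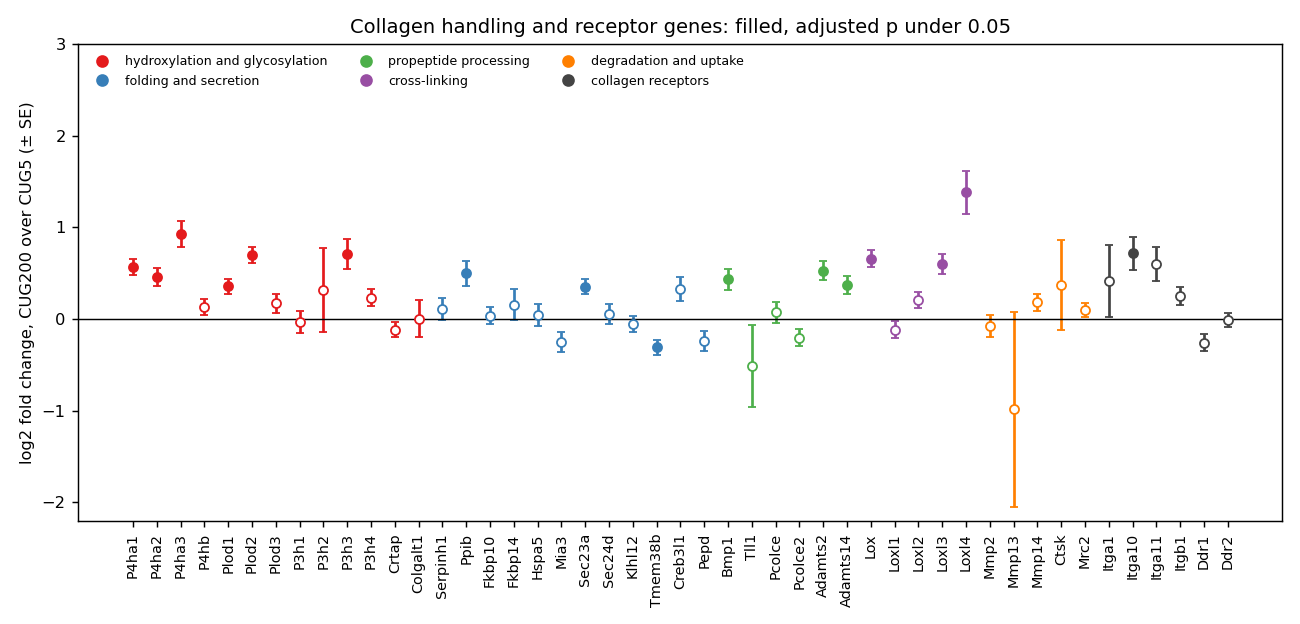
Log2 fold change (DM1 over normal group) with its standard error for the tested collagen handling and receptor genes, colored by step. Filled points have an adjusted p-value under 0.05. The filled points of the hydroxylation and cross-linking steps lie between 0.35 and 1.38, and no degradation gene is filled.

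Collagens are also made by other cell types, and their markers were read in the same libraries. Of 8 fibroblast markers, 6 were tested and 1, *Dpt*, was upregulated (23.6 ± 2.60 and 50.02 ± 8.86 CPM, log2 fold change 1.08 ± 0.14, adjusted p = 0.00304). The summed fibroblast level was 336 to 386 CPM in the normal group and 335 to 391 CPM in the DM1 group, and *Pdgfrb* (173 ± 4.56 and 173 ± 21.2 CPM) and *Prrx1* (130.3 ± 18.8 and 108 ± 6.62 CPM) were its most abundant members. *Tcf21* was at 0 in all libraries, and *Thy1* had at most 4 counts. *Pdgfra* stood at 9.44 ± 0.806 and 11.7 ± 0.735 CPM, without overlap, and did not pass the test (adjusted p = 0.116). Of 12 markers of undifferentiated myoblasts and reserve cells, 1 was upregulated and 4 were downregulated, beside 7.13% and 8.73% of all tested genes, and the sums were 778 to 821 CPM and 717 to 761 CPM. The upregulated marker was *Cd34* (69.6 ± 9.62 and 137 ± 16.6 CPM, log2 fold change 0.97 ± 0.13, adjusted p = 0.00305). The downregulated markers were *Hey1*, *Hes1*, *Myod1*, and *Sdc4*, with log2 fold changes of -2.33 ± 0.24, -0.67 ± 0.14, -0.52 ± 0.10, and -0.38 ± 0.093. Only *Hey1* of these kept its call with each library left out, and the 4 became 1 without normal replicate 3 and 2 without DM1 replicate 2. The part of *Dpt*, *Cd34*, and their lists in the collagen levels was not tested. Some markers of cartilage (*Acan*, *Matn1*) and of leukocytes (*Ptprc*, *Adgre1*) were at 0 in all libraries. Others of these lists, *Chad* (19 to 35 counts), *Matn3* (12 to 23), and *Csf1r* (6 to 45), were detected at a low level in every library. *Sox9*, which made up most of the chondrocyte sum, was at 61.9 ± 2.96 and 46.9 ± 5.02 CPM and was downregulated, a call kept in 2 of the 6 fits that leave out a library, and *Cd68*, a macrophage marker, was at 3.49 ± 0.572 and 3.69 ± 0.621 CPM. Of 7 chondrocyte markers 3 were tested and 1 was lower, with sums of 59.3 to 65.2 CPM and 42.3 to 52.5 CPM. Of 6 osteoblast markers 3 were tested and 1 was lower, with sums of 51.4 to 60.9 CPM and 45.1 to 58.7 CPM. *Runx2*, which made up most of that sum, was at 45.2 ± 4.42 and 50.5 ± 7.86 CPM and did not pass the test. The lower one was *Dmp1* (11.3 ± 0.555 and 2.91 ± 0.555 CPM). Of 6 endothelial markers 2 were tested and 1 was lower, with sums of 9.14 to 10.9 CPM and 5.06 to 6.71 CPM. Of 5 macrophage and leukocyte markers 2 were tested and 0 passed the test by edgeR (0 had an unadjusted p-value under 0.05, and 0 passed by DESeq2), with sums of 3.40 to 4.35 CPM and 3.78 to 4.56 CPM.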

How the data were processed

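RNA-seq of 6 C2C12 libraries (3 normal, 3 DM1) was used. The authors trimmed the reads with Trim Galore, aligned them to GRCm38 with HISAT2, and quantified genes with StringTie, with no versions given in the sources used here. They deposited raw counts per gene for all libraries, without normalization, and for each library a table with the coverage (signal), FPKM, and TPM values of each gene. The read length and the strand setting are not given in the sources used here. Counts match coverage times transcript length divided by 75 for 99.95% of the values of genes with 1 transcript, within 1 count.

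Genes were filtered with filterByExpr (minimum count 10), so that 19005 remained. After TMM scaling (factors 0.940 to 1.05), edgeR's robust quasi-likelihood fit with no covariate gave the p-values, which were adjusted by Benjamini-Hochberg over these genes. The standard error (SE) of each log2 fold change was derived from this test, as its absolute value divided by the square root of the F statistic. The biological coefficient of variation was 0.221. The 44 members were found by symbol, and 38 passed the filter. All collagen genes called by the test, all tested fibrillar, type IV, and type VI genes, and the most abundant gene of each class were to be named, with up to 5 called genes per direction of each handling list and *P4ha1*, *Plod2*, *Serpinh1*, *Lox*, *Itga11*, and *Ddr2*. The other tested collagen genes were named after their values were seen. Members, classes, and the lists of handling genes (46 of 47 found by symbol) and markers were chosen with earlier results of these data known. Promoters were taken from RefSeq (GRCm38.p6). Protein sequences were not analysed here.

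Alternatives were each of the 6 libraries left out, a block for the replicate number, DESeq2, scaling by DESeq2's size factors or by library size alone, 2 other filters, a fit that was not robust, counts divided by 4, sums over genes with shared exons, and limma-trend of TPM on a log2 scale with pseudocounts of 1 and 0.1. The removal of GC and length trends was chosen after seeing the data. The edgeR, DESeq2, and limma scripts were tested on simulated data. The count models ran in limma 3.58.1, DESeq2 1.42.0, and edgeR 4.0.16 under R 4.3.3, and the summaries in matplotlib 3.10.9, numpy 2.4.6, and pandas 2.3.3 under Python 3.11.15. The floor of 3 counts treats each count as independent and covers counting error only. As 1 fragment often gave 4 counts, it is too low as a limit.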

Additional observations from a re-analysis of the deposited data

How the results depend on the processing

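Of the 16 called collagen genes, *Col1a1*, *Col15a1*, *Col23a1*, *Col4a1*, and *Col14a1* were called in every alternative that tested them. The number of upregulated collagen genes, 11, was 4 with limma-trend on log2(TPM + 1) and 4 on log2(TPM + 0.1), and between 8 and 12 when 1 library was left out. The number of downregulated ones, 5, was 2 and 2 with limma-trend and between 2 and 4 with 1 library left out. With an absolute log2 fold change over 1 as well, the 3 upregulated genes became 0 on log2(TPM + 1) and between 1 and 5 with 1 library left out. The 2 downregulated genes became 1 with DESeq2, with at least 10 counts in every library, with counts divided by 4, and on log2(TPM + 0.1), 0 on log2(TPM + 1), and between 1 and 2 with 1 library left out. Over the alternatives the log2 fold change was as low as 0.89 for *Col1a1*, 0.86 for *Col15a1*, and 0.82 for *Col23a1*, each under the cutoff of 1. The causes of these differences were not tested. The 14 upregulated handling genes became 3 and 3 with limma-trend and between 6 and 14 with 1 library left out, the lowest without normal replicate 2. The 1 downregulated gene became between 0 and 2.

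Same-numbered libraries of the groups deviated from their group means with correlations of only 0.0675, 0.0222, and 0.0263, so the numbers were not taken to pair the libraries. With the replicate number as a block, 10 collagen genes were higher and 3 lower, and 1 was past the lower cutoff. *Col5a3*, *Col24a1*, and *Col26a1* lost the call with the block. With it the log2 fold change of Col5a3 was 0.37 (0.38 without it), the log2 fold change of Col24a1 was -0.72 (-0.71), and the log2 fold change of Col26a1 was -2.30 (-2.19).

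The median log2 fold change of the type IV genes, -0.31, was -0.0215 on log2(TPM + 1), -0.14 on log2(TPM + 0.1), and between -0.53 and -0.0379 with 1 library left out. That of the FACIT genes was between 0.37 and 0.71 with 1 library left out, and that of the type VI genes was 0.44 and 0.44 with limma-trend. The log2 change of the *Col1a1* to *Col1a2* ratio, 0.67, was 0.73 from counts per kilobase. That of *Col6a1* to *Col6a2*, -0.11, was 0.0219 from counts per kilobase, and that of *Col5a3* to *Col5a2*, 0.05, reached -0.0011 without normal replicate 1 (between -0.0011 and 0.0976 with 1 library left out).

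The log2 fold change of *Col11a2* lay between -0.0042, without DM1 replicate 3, and 0.4583 with 1 library left out. That of *Col4a6* was -0.0001 and -0.0887 with limma-trend, and between -0.726 (without DM1 replicate 3) and 0.8114 with 1 library left out, with -0.1439 without normal replicate 2. That of *Col6a4* lay between -0.1425 (without normal replicate 2) and 1.3856. That of *Ddr2* was 0.1217 with GC and length trends removed, and between -0.0445 and 0.0128 with 1 library left out, above 0 without normal replicate 3, DM1 replicate 1, or DM1 replicate 3. None of these genes passed the test in those fits. Genes under 1 CPM rest on few fragments, and among such collagen genes only *Col26a1* was called by the edgeR test as reported, while *Col9a3* was called in 2 of 15 alternative fits.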
